A study of Rattus norvegicus with 15 samples.

Results

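The 10 genes described here encode the enzymes that convert prohormones into hormones and the proteins that fill the secretory granules of islet cells: Pcsk1, Pcsk2, Cpe, Scg5, Pam, Chga, Chgb, Scg2, Scg3 and Resp18. They were taken by symbol from tables of 17055 genes, and all 10 were present and passed the filter on low counts in every comparison. The cells were dispersed islet cells of Sprague-Dawley rats aged 10 days, given as 1.5 weeks in the labels, and all of them had been transfected. One set received a mimic of miR-17-5p, which raises the amount of this microRNA in the cell, and the other a control mimic. From each set came mRNA libraries, made from poly(A) RNA, and RISC libraries, made from RNA bound to Ago2, the Argonaute protein of the RNA-induced silencing complex (RISC). There were 4 miR-17-5p RISC libraries (numbered 2, 4, 5 and 6), 3 control RISC libraries (1, 2 and 3), 5 miR-17-5p mRNA libraries (1, 2, 4, 5 and 6) and 3 control mRNA libraries (1, 2 and 3). The labels call these biological replicates but number them differently in titles and descriptions and do not say which animals went into which library, so p-values measure the spread between libraries, which may be technical. Dispersed islets hold beta cells beside other endocrine cells and non-endocrine cells, and in such bulk samples fewer cells of a type and less RNA per cell cannot be told apart.

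Prohormones are cut at basic residues by the convertases encoded by Pcsk1 and Pcsk2, and Cpe, carboxypeptidase E, trims the exposed basic residues. In beta cells this sequence turns proinsulin into insulin and C-peptide. Scg5 encodes a small granule protein that binds the Pcsk2 product and is needed for its activation, and Pam amidates the ends of many neuropeptides. Chga, Chgb, Scg2 and Scg3 encode granins, acidic proteins that aggregate in the trans-Golgi network and are packed into dense-core granules. Resp18 encodes an endocrine protein of the endoplasmic reticulum and granule lumen.

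A microRNA guides Argonaute to transcripts mainly through its seed, bases 2 to 8. The mature sequences are shown because the mimic carries the first of them and the others share its seed, given in capitals. They are RefSeq sequences (GRCr8), and miR-17-5p is annotated at 2 rat loci, on chromosomes 15 and X.
rno-miR-17-5p: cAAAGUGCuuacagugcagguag
rno-miR-20a-5p: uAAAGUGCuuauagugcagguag
rno-miR-20b-5p: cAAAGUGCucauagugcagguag
rno-miR-93-5p: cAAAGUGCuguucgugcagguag
rno-miR-106b-5p: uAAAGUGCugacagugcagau
Sites for this seed in the transcripts of the 10 genes were not analysed here.

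RefSeq promoters (GRCr8, 250 bases before to 50 after each gene's start) were at hand for 8 of the 10 genes, all but Pcsk1 and Chga. They were searched on both strands for 9 short strings of letters, picked with the results known. The cyclic AMP response element TGACGTCA was found in 1 of the 8 (Scg2), against 1.83% of 33469 promoters. Its first 6 letters, TGACGT, which the full element contains, were found in 3 (Cpe, Scg5 and Scg2), against 7.94%, and TGACG, contained in both, in 6 (Pcsk2, Cpe, Scg5, Pam, Scg2 and Scg3), against 21.2%. The other strings were CAGCTG in 1 of 8 (15.1% of all promoters), CACGTG in 0 (6.42%), TATAAA in 0 (14.2%) and TATAAAA, which contains it, in 0 (5.96%). CCAAT was in 3 of 8 (37.5%) and GGGCGG in 5 (33.1%). The 250 bases before the Scg2 start (chr9:88256867-88257116, minus strand) and the stretch around the Cpe match (chr16:29796519-29796554, plus strand) are printed with the matched letters in capitals, as the 2 matches that lie before the start sites.
Scg2: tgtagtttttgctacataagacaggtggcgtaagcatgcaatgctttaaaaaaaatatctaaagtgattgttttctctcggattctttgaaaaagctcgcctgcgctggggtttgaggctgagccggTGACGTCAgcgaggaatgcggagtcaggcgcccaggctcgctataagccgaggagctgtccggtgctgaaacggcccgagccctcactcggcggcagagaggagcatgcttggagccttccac
Cpe: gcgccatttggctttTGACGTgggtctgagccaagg

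Libraries held 3379456 to 21056240 counts. Of all counts, the 10 genes made up 1.11% to 1.62% in miR-17-5p RISC libraries, against 1.94% to 2.13% in control RISC libraries, and 0.878% to 1.22% in miR-17-5p mRNA libraries, against 1.37% to 1.47% in control mRNA libraries. Ins1 and Ins2, the insulin genes of the rat, took 0.947% to 1.97% of RISC counts and 26.2% to 41.8% of mRNA counts. Rn45s, a ribosomal RNA precursor, took 23.6% to 42.6% of RISC counts and 3.13% to 12.8% of mRNA counts. Genes with at least 1 count numbered 9040 to 10753 in miR-17-5p RISC libraries, 5589 to 7424 in control RISC libraries and 11142 to 12997 in mRNA libraries. Levels are given as CPM, counts scaled to the size of each library, after trimmed mean of M values (TMM) scaling over all 15 libraries, while fold changes use the scaling of the libraries compared. Such levels allow a gene to be compared between libraries, but not 2 genes with each other, because they are not per transcript length.

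The first comparison asked how these genes responded in poly(A) RNA when miR-17-5p was added. With TMM scaling all 10 genes had log2 fold changes below 0, from -0.69 ± 0.22 for Scg5 to -0.23 ± 0.20 for Pcsk1 (± standard error, n = 5 and 3), and with libraries scaled to endocrine identity genes instead, 3 of the 10 did (Pcsk2, Cpe and Scg5). In edgeR's quasi-likelihood test none of the 10 passed an adjusted p of 0.05, against 3.87% of 11077 genes tested (3.11% higher and 0.767% lower). The median log2 fold change was -0.50 over the 10 genes and 0.01 over all genes, 49.3% of which lay below 0. At an unadjusted p under 0.05 were 8 of the 10, against 19.0% of all genes. The level of these genes in 4 of the 5 miR-17-5p libraries lay below all controls, and library 1 stood apart.

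Among the convertases, Pcsk2 had 2584, 1327, 1219.7, 1731 and 1495 CPM in miR-17-5p mRNA libraries 1, 2, 4, 5 and 6, against 2410.5, 2303 and 2883 CPM in control mRNA libraries 1, 2 and 3. Libraries 2, 4, 5 and 6 were below every control, and library 1 was inside the control range, so the groups overlapped. The log2 fold change was -0.60 ± 0.22 (adjusted p = 0.148). Pcsk1 had 512, 314, 259, 316 and 319.7 CPM in the miR-17-5p libraries, against 335, 398 and 479 CPM in controls. Here library 1 was the highest of all 8 libraries and the other miR-17-5p libraries were the lowest 4 (-0.23 ± 0.20, adjusted p = 0.572).

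Scg5, whose product binds the Pcsk2 convertase, had 638, 286, 330.0, 355 and 336 CPM in miR-17-5p libraries, against 584, 557 and 743 CPM in controls. Its 4 low libraries lay far under library 1, and the log2 fold change was -0.69 ± 0.22 (adjusted p = 0.115). Cpe had 1725, 983, 866, 1295 and 1109.7 CPM in miR-17-5p cells, against 1619.6, 1762 and 2017 CPM in control cells. Library 1 again fell within the control range (-0.59 ± 0.20, adjusted p = 0.121). For Pam, the amidating enzyme, the values were 1107, 735, 704, 825 and 777 CPM with miR-17-5p, against 1023, 990.5 and 1276 CPM with the control mimic. The same 4 libraries were below the controls (-0.40 ± 0.16, adjusted p = 0.199).

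The 2 chromogranins were the members whose groups did not overlap, and neither was called. Chga had 1213, 1121, 759.7, 1039 and 799.7 CPM in miR-17-5p libraries, against 1443, 1375 and 1589 CPM in controls, and a log2 fold change of -0.58 ± 0.17 (adjusted p = 0.074). Chgb had 1372, 1816, 1685, 1558 and 1488 CPM with miR-17-5p, against 1963, 2358 and 2040.2 CPM in controls (-0.42 ± 0.14, adjusted p = 0.123). Library 1 was the lowest of all for Chgb and the highest of the miR-17-5p libraries for Chga. Levels below every control in all 5 miR-17-5p libraries were seen in 6.54% of the genes tested.

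Scg2, also called secretogranin II, had 3861, 2324, 2316, 2461 and 2524 CPM with miR-17-5p, against 3412, 3838 and 3673 CPM in controls. Scg3, a granin that binds granule membrane and other granins, had 854, 550.1, 463, 559.8 and 551 CPM, against 808, 786 and 1053 CPM. Both had 4 miR-17-5p libraries under all controls, and library 1 was above the highest control for Scg2 and inside the control range for Scg3. Their log2 fold changes were -0.43 ± 0.18 (adjusted p = 0.207) and -0.57 ± 0.18 (adjusted p = 0.112). Resp18 had 2308, 1385, 1556, 1624 and 1514 CPM in miR-17-5p libraries, against 2080.1, 2083 and 1854 CPM in controls. Library 1 was again the highest of the 8 libraries, and the other 4 were the lowest (-0.26 ± 0.17, adjusted p = 0.443).

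**Figure D1:**
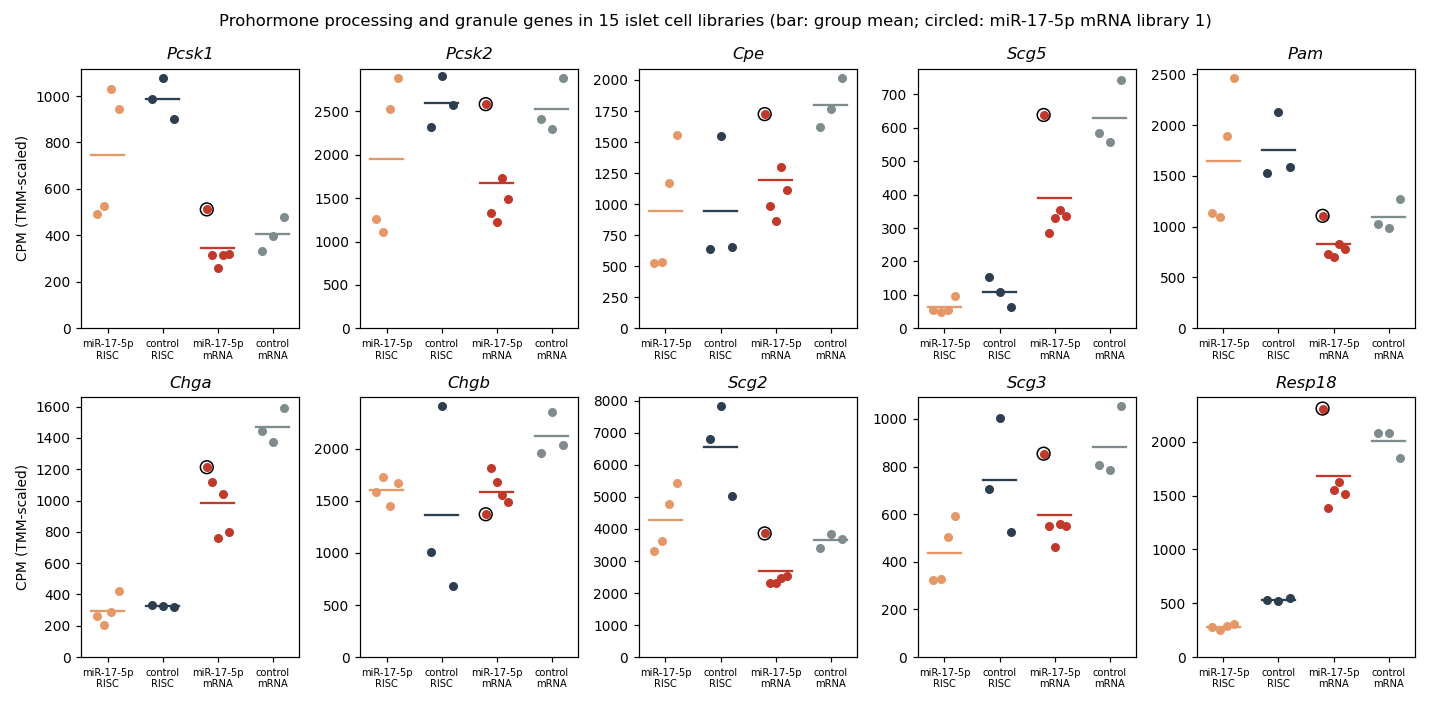
Level of each gene in CPM (TMM-scaled, linear axis from 0) in miR-17-5p RISC, control RISC, miR-17-5p mRNA and control mRNA libraries; each point is 1 library, the bar is the group mean and the circle marks miR-17-5p mRNA library 1. In mRNA the other 4 miR-17-5p libraries lie below all controls for all 10 genes, while library 1 does so for Chga and Chgb alone.

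With TMM scaling libraries 2, 4, 5 and 6 each had 10 of 10 genes below the lowest control. Library 1 had 2 below it and 3 above the highest control (Pcsk1, Scg2 and Resp18). Its TMM factor, 0.753, was the lowest of the 15 libraries, and a lower factor gives a higher CPM. By share of all counts the 10 genes made up 1.22% in library 1, below the 1.37% to 1.47% of control mRNA libraries. At least 4 of the 5 miR-17-5p libraries were below every control for 15.3% of all genes tested. Without library 1, edgeR called 7 of the 10 lower (Pcsk2, Cpe, Scg5, Pam, Chga, Scg2 and Scg3), against 2.48% of all genes. With any other single library left out, it called none of the 10. Library 1 stood out by the values of these same genes, so the fit without it is no independent support. With all libraries, DESeq2 called 6 lower, against 2.31% of all genes, and limma-voom with quality weights called 8 lower, against 3.76%. Whether the mRNA response passes the threshold therefore differed by test and by this library.

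Lists of endocrine and other cell type markers were read in the same libraries. Of 12 endocrine identity factors tested, none passed the test, and with TMM scaling all 12 had log2 fold changes below 0 (median -0.57), while endocrine scaling sets this list itself near 0. Their summed level was 800 to 1566 CPM in miR-17-5p libraries, the highest in library 1, against 1465 to 1802 CPM in controls. Of 15 stellate cell and fibroblast genes tested, 10 rose, against 3.11% of all genes. Among them were Acta2 (smooth muscle actin, 1.97 ± 0.25, edgeR adjusted p = 0.00128) and Fn1 (fibronectin, 1.86 ± 0.30, edgeR adjusted p = 0.00635). The summed level of this list was 22566 to 49201 CPM with miR-17-5p, the lowest in library 1, against 11877 to 21013 CPM in controls, and Col1a2 was listed at 0 in every library. The part of these lists in the values of the 10 genes was not tested.

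The remaining marker lists gave fewer calls in mRNA with TMM scaling. Endothelial genes had 2 of 12 lower (Cdh5 and Kdr), duct genes 1 of 7 lower (Epcam), red blood cell genes 3 of 4 lower (Hba1, Hba2 and Hbb), and Schwann and neural genes 1 higher (Cryab) and 1 lower (Stmn2) of 10. Macrophage and leukocyte genes had 0 of 15 called and acinar genes 0 of 7. Among all genes 3.11% were called higher and 0.767% lower. The summed levels of macrophage genes were 234 to 579 CPM in miR-17-5p libraries, against 101 to 406 CPM in controls, and those of acinar genes 22.4 to 163 CPM, against 15.3 to 46.4 CPM.

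**Figure D2:**
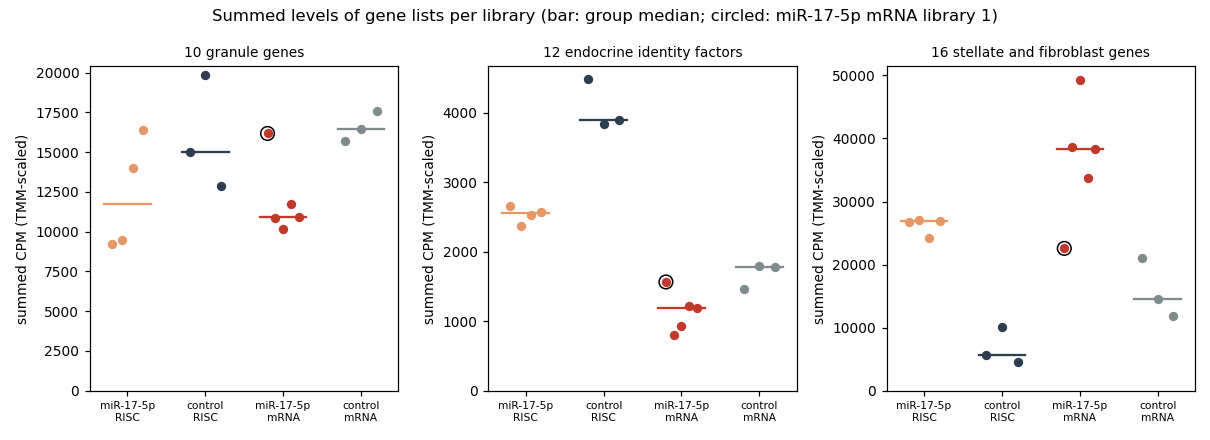
Summed CPM (TMM-scaled, linear axis from 0) of the 10 granule genes, 12 endocrine identity factors and 16 stellate and fibroblast genes in each library of the 4 groups; bars are group medians and the circle marks miR-17-5p mRNA library 1. In the circled library the granule genes sum to 16174 CPM, inside the control range, and the stellate genes to 22566 CPM, the lowest of the miR-17-5p mRNA libraries.

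Ratios between 2 genes of the same library do not depend on how libraries are scaled. There were 12 such tests on 3 ratios chosen after the values were seen, with p-values adjusted over the 12. For every 100 Pcsk2 counts there were 19.8, 23.7, 21.2, 18.3 and 21.4 Pcsk1 counts in miR-17-5p mRNA libraries, against 13.9, 17.3 and 16.6 in controls. The groups did not overlap, and the means were 20.9 ± 2.01 and 15.9 ± 1.80 (SD, n = 5 and 3; exact two-sided permutation p = 0.0179, the smallest possible, adjusted p = 0.0536). Scg5 counts per 100 Pcsk2 counts were 23.3 ± 2.63 with miR-17-5p and 24.7 ± 0.894 in controls (SD, n = 5 and 3; exact permutation p = 0.357), a difference within the spread. Chga per 100 Chgb counts was 63.1 ± 16.3 against 69.9 ± 10.3 (SD, n = 5 and 3; exact permutation p = 0.482).

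The second comparison asked how the same genes responded in Ago2-bound RNA. None of the 10 passed edgeR's test, against 0.371% of 9443 genes tested (0.0318% lower), and 3 had an unadjusted p under 0.05 (Scg2, Scg3 and Resp18), against 20.1% of all genes. With TMM scaling 8 of the 10 had log2 fold changes below 0, and with endocrine scaling 4 did (Scg5, Scg2, Scg3 and Resp18), while with DESeq2 size factors Cpe lay below 0 as well. The TMM-scaled median was -0.39 over the 10 genes and 0.27 over all genes, 41% of which lay below 0.

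Resp18 had the smallest adjusted p of the 10. It had 281, 249, 285 and 310.1 CPM in miR-17-5p RISC libraries 2, 4, 5 and 6, against 530.1, 522 and 552 CPM in control RISC libraries 1, 2 and 3. All 4 miR-17-5p libraries were below all controls, with a log2 fold change of -0.90 ± 0.18 (n = 4 and 3, adjusted p = 0.0725). Such a separation was seen in 3.36% of genes tested. Genes at 0 in a control library cannot show it, and control RISC library 3 had counts for 5589 genes. Resp18 passed the test by DESeq2 (adjusted p = 4.83e-09), and by edgeR without control RISC library 2 (adjusted p = 0.0386) or without miR-17-5p RISC library 4 (adjusted p = 0.046).

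For several other members the 4 miR-17-5p RISC libraries lay apart from one another. Pcsk2 had 1263, 1113, 2533 and 2883 CPM in miR-17-5p RISC libraries, against 2326, 2905 and 2575 CPM in control RISC libraries. Pcsk1 had 490.0, 527, 1028 and 944 CPM, against 989, 1077 and 900.1 CPM, and Pam had 1138, 1099.7, 1895 and 2469 CPM, against 1530.0, 2134 and 1592 CPM. In all 3 genes libraries 2 and 4 were under every control and libraries 5 and 6 were not. Cpe had 526, 534, 1166 and 1557 CPM with miR-17-5p, against 640.5, 1545 and 656 CPM, with library 2 of the controls more than the other two together. Of the 10 genes, 9 were below the lowest control in miR-17-5p RISC library 2, 9 in library 4, 5 in library 5 and 1 in library 6. In library 6 another 3 were above the highest control (Cpe, Pam and Chga). All or all but 1 of the 4 miR-17-5p libraries were below every control for 6.48% of all genes tested.

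Among the granins, Scg2 had 3298, 3629.8, 4767 and 5419 CPM in miR-17-5p RISC libraries, against 6794, 7829 and 5027 CPM in controls (-0.59 ± 0.23, adjusted p = 0.172). Scg3 had 325, 328, 504 and 594 CPM, against 706, 1002 and 523 CPM (-0.74 ± 0.30, adjusted p = 0.193). In each, 3 of 4 miR-17-5p libraries were under all controls and 1 was not. Chga had 261, 206, 289.7 and 423 CPM, against 336, 329 and 322 CPM, so that the close control values lay inside the spread of the miR-17-5p libraries. Chgb had 1588, 1726, 1450.4 and 1672 CPM, against 1011, 2407 and 687 CPM. Its miR-17-5p libraries were close to one another and inside the wide control range, and without control RISC library 2 edgeR called Chgb higher (0.96, adjusted p = 0.0386). Scg5 had 53.2, 47.7, 55.7 and 96.5 CPM, against 152, 109 and 64.8 CPM, and the groups overlapped.

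In RISC the endocrine identity list summed to 2369 to 2663 CPM with miR-17-5p, against 3845 to 4486 CPM in controls. Of its 12 factors 0 were called, against 0.371% of all genes. The stellate and fibroblast list summed to 24191 to 27109 CPM, against 4572 to 10053 CPM. Of its 15 genes tested 6 were higher, against 0.339% of all genes, including Col1a1 (2.35 ± 0.29, edgeR adjusted p = 0.0191). The part of either list in the values of the granule genes was not tested.

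**Figure D3:**
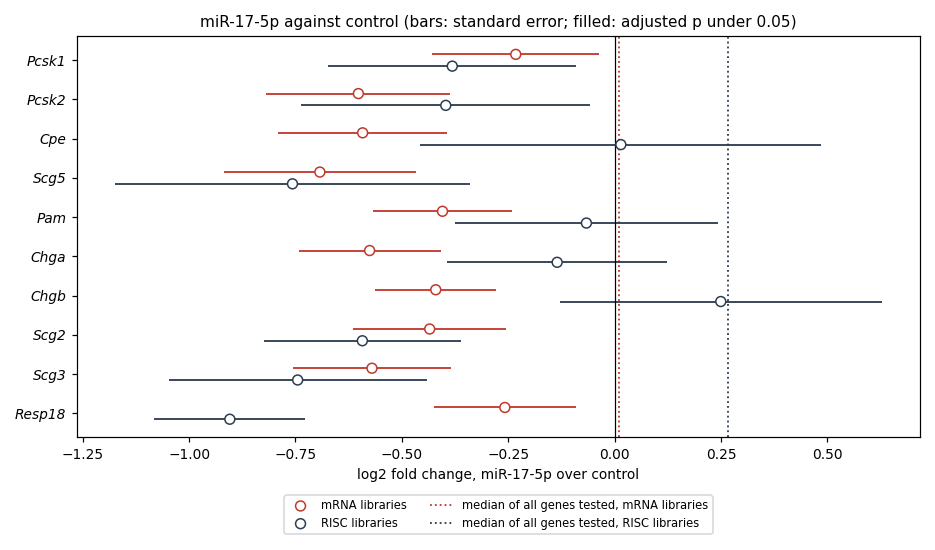
Log2 fold changes of miR-17-5p over control for each gene in mRNA libraries and in RISC libraries; horizontal bars are standard errors, filled points would mark an adjusted p under 0.05 and dotted lines are the medians of all genes tested. No point is filled, and all 10 mRNA values lie left of 0 with the TMM scaling used here, against 3 with endocrine scaling.

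Whether the response in RISC differed from that in mRNA was tested in 1 model of all 15 libraries. None of the 10 genes passed, against 13.4% of 11418 genes tested (13% higher and 0.394% lower). The difference for Resp18 was -0.67 ± 0.22 (log2, RISC minus mRNA response, adjusted p = 0.0594). It passed with DESeq2 size factors (adjusted p = 0.0205) or with DESeq2 (adjusted p = 0.00645), and by edgeR without miR-17-5p mRNA library 1 (adjusted p = 0.0497) or 2 (adjusted p = 0.0403). For Chgb the difference was 0.66 ± 0.41 (adjusted p = 0.388), and without control RISC library 2 it was 1.55 (adjusted p = 2.62e-04). The other 8 genes had adjusted p between 0.494 and 0.992.

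The remaining comparisons set Ago2-bound RNA against poly(A) RNA, in miR-17-5p cells and in control cells, which share no library. With TMM scaling 3 of the 10 genes were higher in RISC than in mRNA in both sets of cells (Pcsk1, Pam and Scg2), and 3 were lower in both (Scg5, Chga and Resp18). In miR-17-5p cells 43.5% of 10871 genes were called (21.7% higher and 21.8% lower), and in control cells 28.2% of 10170 (5.96% higher and 22.3% lower). Of 10055 genes tested in both, 5.83% were higher in both and 8.19% lower in both, beside 30% and 30% of the 10 granule genes. Scaled to the endocrine identity list, none of Pcsk1, Pam and Scg2 was called higher in either set, while Scg5, Chga and Resp18 were lower in both. With TMM scaling this list itself had 6 of 12 factors higher and 1 lower in RISC in miR-17-5p cells (median 0.84). In control cells 3 of 12 were higher and 0 lower (median 0.81). Scaling to it sets such differences near 0 and moved the median of all genes by -0.76 in either set.

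The 3 genes that were lower in RISC differed widely from mRNA. In miR-17-5p cells Scg5 fell to 63.2 ± 22.4 CPM in RISC, against 389 ± 142 CPM in mRNA (SD, n = 4 and 5; log2 fold change -2.46 ± 0.28, edgeR adjusted p = 3.72e-05). In control cells it was 109 ± 43.8 CPM in RISC and 628 ± 100.3 CPM in mRNA (SD, n = 3 each; -2.52 ± 0.36, edgeR adjusted p = 0.00861). Every RISC value was below every mRNA value in both sets. Resp18 averaged 281 ± 24.9 CPM in RISC and 1678 ± 363 CPM in mRNA with miR-17-5p (SD, n = 4 and 5; -2.40 ± 0.18, edgeR adjusted p = 2.06e-06). With the control mimic it was 535 ± 15.4 and 2005 ± 131 CPM (SD, n = 3 each; -1.90 ± 0.12, edgeR adjusted p = 0.00371). Chga had log2 fold changes of -1.57 ± 0.23 in miR-17-5p cells (edgeR adjusted p = 1.78e-04) and -2.15 ± 0.13 in control cells (edgeR adjusted p = 0.00365), and its libraries did not overlap in either set. These 3 passed the test in both sets of cells under every scaling, filter, test and left-out library tried.

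The 3 genes that were higher in RISC had smaller differences. Pcsk1 averaged 747 ± 278 CPM in RISC and 344 ± 97.0 CPM in mRNA in miR-17-5p cells (SD, n = 4 and 5), and 989 ± 88.6 CPM in RISC and 404 ± 72.5 CPM in mRNA in control cells (SD, n = 3 each). Its log2 fold changes were 1.30 ± 0.27 (edgeR adjusted p = 0.00229) and 1.30 ± 0.18 (edgeR adjusted p = 0.00845). In miR-17-5p cells the groups overlapped through library 1 of mRNA, and in control cells they did not. Pam had 1.16 ± 0.25 (edgeR adjusted p = 0.00276) and 0.68 ± 0.19 (edgeR adjusted p = 0.0475), and Scg2 had 0.84 ± 0.21 (edgeR adjusted p = 0.00692) and 0.85 ± 0.18 (edgeR adjusted p = 0.018). Leaving out any 1 of the 3 control mRNA libraries left Pcsk1 as the gene called higher in control cells, with Pam at adjusted p of 0.0586 to 0.164 and Scg2 at 0.0651 to 0.0774. Pam in control cells also missed the threshold without control RISC library 2 (0.0951) or 3 (0.0569), with DESeq2 size factors (0.131), with DESeq2 (0.153) and with a mean of at least 50 counts (0.0918).

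With TMM scaling Pcsk2, Cpe, Chgb and Scg3 were not called in either set. With endocrine scaling Cpe (-0.90, adjusted p = 0.0341) and Scg3 (-1.001, adjusted p = 0.00561) were called lower in miR-17-5p cells. Pcsk2 had 0.40 ± 0.32 in miR-17-5p cells and 0.05 ± 0.15 in control cells, and Scg3 had -0.27 ± 0.23 and -0.24 ± 0.28. Cpe had -0.17 ± 0.33 and -0.92 ± 0.39, and Chgb 0.19 ± 0.13 and -0.63 ± 0.48. Without control RISC library 2, Cpe (-1.51, adjusted p = 0.00707) and Chgb (-1.35, adjusted p = 0.0137) were called lower in control cells.

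**Figure D4:**
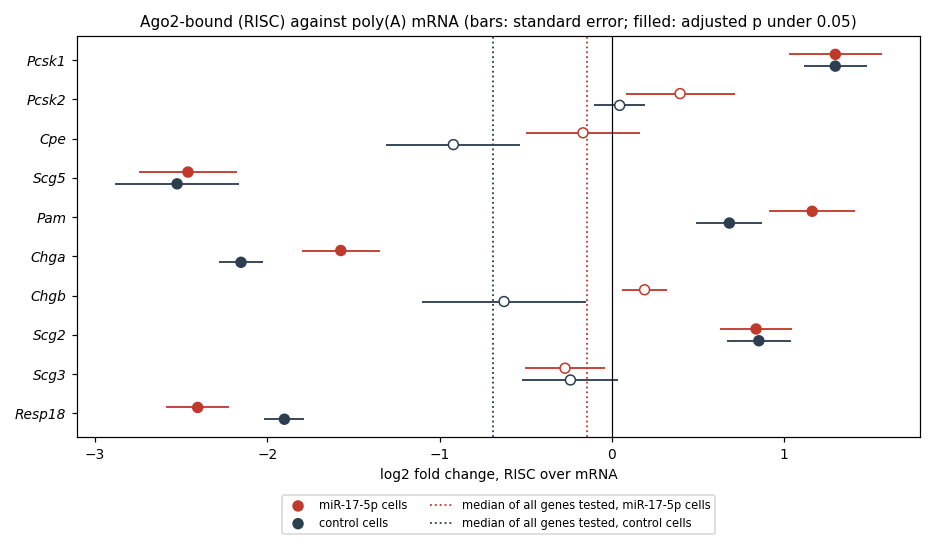
Log2 fold changes of RISC over mRNA for each gene in miR-17-5p cells and in control cells (TMM-scaled); horizontal bars are standard errors, filled points have an adjusted p under 0.05 and dotted lines are the medians of all genes tested, -0.15 and -0.69. Pcsk1, Pam and Scg2 are filled right of 0 and Scg5, Chga and Resp18 left of 0 in both sets of cells. With endocrine scaling, to a list itself higher in RISC (medians 0.84 and 0.81), none is called right of 0.

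Within a library the convertase Pcsk2 and its partner Scg5 stood in a different ratio in the 2 kinds of RNA. There were 4.21, 4.28, 2.2 and 3.35 Scg5 counts per 100 Pcsk2 counts in miR-17-5p RISC libraries, against 24.7, 21.5, 27.1, 20.5 and 22.5 in miR-17-5p mRNA libraries. The means were 3.51 ± 0.973 and 23.3 ± 2.63 (SD, n = 4 and 5; exact two-sided permutation p = 0.00794, the smallest possible, adjusted p = 0.0317). In control cells they were 4.27 ± 2.07 in RISC and 24.7 ± 0.894 in mRNA, also without overlap (SD, n = 3 each; exact permutation p = 0.1, the smallest that 3 against 3 allows). Pcsk1 per 100 Pcsk2 counts was 39.9 ± 6.02 in RISC and 20.9 ± 2.01 in mRNA in miR-17-5p cells (SD, n = 4 and 5; p = 0.00794 by the same exact permutation test, adjusted p = 0.0317), and 38.2 ± 3.90 and 15.9 ± 1.80 in control cells (SD, n = 3 each; exact permutation p = 0.1). Chga per 100 Chgb counts was 18.4 ± 5.64 in RISC and 63.1 ± 16.3 in mRNA in miR-17-5p cells (SD, n = 4 and 5; p = 0.00794 by the same exact permutation test, adjusted p = 0.0317), and 31.3 ± 16.7 and 69.9 ± 10.3 in control cells (SD, n = 3 each; exact permutation p = 0.1). Leaving out any 1 library kept the direction of each of these RISC against mRNA ratios, with adjusted p of 0.0536 to 0.114 in miR-17-5p cells. Fewer libraries raise the smallest possible p, and in those cells the RISC and mRNA values of each ratio did not overlap.

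**Figure D5:**
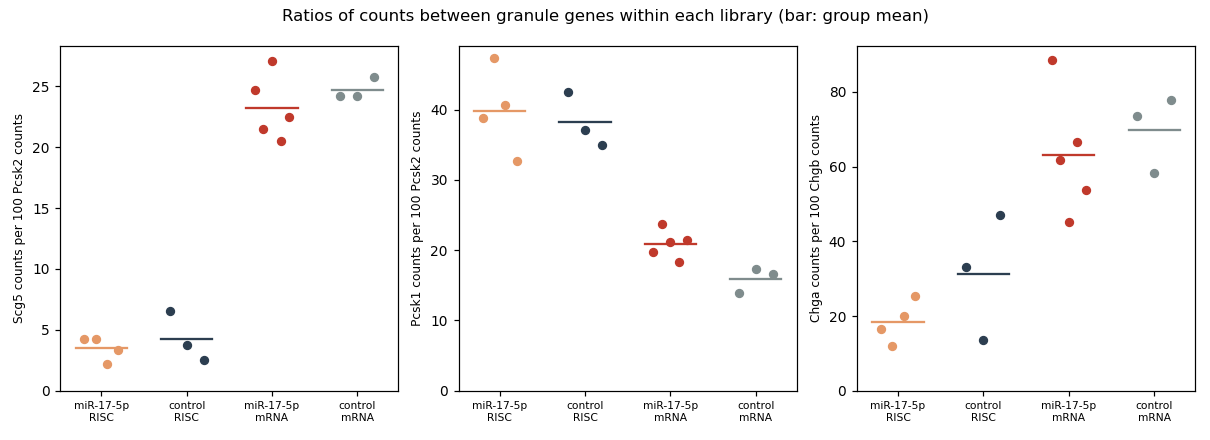
Counts of Scg5 per 100 Pcsk2, Pcsk1 per 100 Pcsk2 and Chga per 100 Chgb in each library of the 4 groups (linear axes from 0); points are libraries and bars group means. Scg5 per 100 Pcsk2 is at most 6.55 in the RISC libraries and at least 20.5 in the mRNA libraries.

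The cargo that these proteins process and pack was lower in RISC than in mRNA by more than any of the 10 genes. Ins1 had log2 fold changes of -5.12 ± 0.28 in miR-17-5p cells (edgeR adjusted p = 2.97e-07) and -5.12 ± 0.26 in control cells (edgeR adjusted p = 0.00365), and Ins2 had -4.79 ± 0.32 and -4.87 ± 0.26. Neither passed the test for miR-17-5p, with -0.22 ± 0.26 and -0.32 ± 0.27 in mRNA. Of the prohormone list, 8 of 11 tested were lower in RISC in miR-17-5p cells and 8 of 12 in control cells. Among all genes the shares called lower were 21.8% and 22.3%. Ppy, pancreatic polypeptide, was lower in both sets (-4.72 ± 0.43 and -4.29 ± 0.53). In mRNA with TMM scaling 2 of 12 prohormones fell with miR-17-5p, against 0.767% of all genes. Endocrine scaling raises the median of all genes there by 0.61 and left 2 genes in all called lower. Ghrl, ghrelin, averaged 34.5 ± 6.59 CPM, against 75.0 ± 22.0 CPM in controls (SD, n = 5 and 3; -1.13 ± 0.20, edgeR adjusted p = 0.00894). Pyy, peptide YY, averaged 481 ± 40.2 CPM, against 842 ± 251 CPM (SD, n = 5 and 3; -0.80 ± 0.17, edgeR adjusted p = 0.0183).

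Other enzymes of the pathway were read from wider lists. Of 5 other convertases tested in mRNA none passed for miR-17-5p, and of 12 other processing proteins 1 rose, the copper transporter Slc31a1 (41.2 ± 6.89 CPM, against 24.6 ± 3.08 CPM in controls, SD, n = 5 and 3; 0.74 ± 0.19, edgeR adjusted p = 0.0492). Copper is a cofactor of the amidating enzyme Pam. For miR-17-5p in mRNA 3.11% of all genes were called higher and 0.767% lower. In RISC against mRNA, Cpd, carboxypeptidase D, which like Cpe removes basic residues, was higher in miR-17-5p cells (187 ± 37.7 CPM in RISC and 48.2 ± 9.98 CPM in mRNA; 2.13 ± 0.21, edgeR adjusted p = 1.03e-05). It was also higher in control cells (2.15 ± 0.34, edgeR adjusted p = 0.00957). Furin, a convertase of the constitutive pathway, was called higher in miR-17-5p cells with TMM scaling (0.60 ± 0.14, edgeR adjusted p = 0.00487). Endocrine scaling moves the median of all genes there by -0.76. None of 4 other convertases was called in control cells. In all, 2 of 11 processing proteins were higher and 5 lower in miR-17-5p cells, among the lower Erp29, a chaperone of the endoplasmic reticulum (-2.11 ± 0.25), and Ctsl1, cathepsin L (-1.05 ± 0.22). In control cells 2 of 11 were higher and 3 lower, and Cpxm2, among those lower, had 0 counts in all 3 control RISC libraries. Among all genes 21.7% were higher and 21.8% lower in miR-17-5p cells, and 5.96% higher and 22.3% lower in control cells.

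Of 16 other granule proteins tested in mRNA, none passed for miR-17-5p, against 3.87% of all genes. Their median log2 fold change was -0.43 with TMM scaling. Endocrine scaling raises the median of all genes by 0.61, which is more than that. In RISC against mRNA 4 of 16 were higher and 8 lower in miR-17-5p cells, and 0 of 15 higher and 4 lower in control cells. Over all genes 21.7% were higher and 21.8% lower in miR-17-5p cells, and 5.96% higher and 22.3% lower in control cells. Nucb2, nucleobindin 2, was lower in both (-1.68 ± 0.18 and -2.62 ± 0.41), as was Ica1, an islet autoantigen (-1.70 ± 0.24 and -1.50 ± 0.40). Rab27a, a GTPase of granule docking, was higher in miR-17-5p cells (1.16 ± 0.22), and Ptprn, a granule membrane protein, was lower in control cells (-1.85 ± 0.22). Vgf, a granin-like protein, had 24.3 ± 17.6 CPM in miR-17-5p mRNA, 27.6 ± 3.78 CPM in control mRNA and 5.53 ± 3.58 CPM in miR-17-5p RISC (SD, n = 5, 3 and 4), and 0 counts in all 3 control RISC libraries.

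Granule biogenesis genes had 1 of 14 lower with miR-17-5p in mRNA, Pick1, which shapes budding granule membrane (24.2 ± 3.83 CPM, against 40.5 ± 4.97 CPM in controls, SD, n = 5 and 3; -0.73 ± 0.18, edgeR adjusted p = 0.0452). That call was made with TMM scaling, where 0.767% of all genes were called lower. Endocrine scaling raises the median of all genes in mRNA by 0.61. In RISC against mRNA 3 of 14 were higher and 4 lower in miR-17-5p cells, and 1 higher and 3 lower in control cells. The shares of all genes were 21.7%, 21.8%, 5.96% and 22.3% in the same order. Ap1g1, an adaptor subunit of trans-Golgi coats, was higher in both (2.22 ± 0.21 and 1.79 ± 0.44). Bloc1s1, Rab6b and Vti1a had 0 counts in all control RISC libraries, so no fold is given for them there.

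The genes whose level over the 15 libraries lay closest to the median profile of the 10 were sought among 4167 others whose mean log2 CPM in mRNA reached 5. They were Entpd3 (root mean square difference of centred log2 CPM 0.203), Pc (0.210), Slc38a5 (0.222), Por (0.256), Rpn1 (0.264) and Nrd1 (0.275), against a median of 1.12 for all candidates. Of the 10 genes themselves Scg3 was closest to that median profile (0.156) and Scg5 farthest (1.16). Entpd3, an ectonucleotidase, averaged 254 ± 56.1 CPM in miR-17-5p mRNA and 365 ± 34.1 CPM in control mRNA (SD, n = 5 and 3).

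The lowest level of any of the 10 genes was 47.7 CPM, for Scg5 in miR-17-5p RISC library 4. Between libraries, edgeR estimated a biological coefficient of variation of 1.23 for the RISC response and of 0.305 for the mRNA response. No mock precipitation was analysed here, and a value in RISC is a share of the recovered RNA.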

How the data were processed

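Per the labels' protocols, Trizol was used to extract RNA, oligo(dT) to select it for mRNA libraries, and RISC libraries came from RNA precipitated with an anti-Ago2 antibody, sequenced as single ends without strand information. Per the submitters' processing notes, the tools were TopHat2 2.0.10, Bowtie2, HTSeq, DESeq and edgeR, and the build rn5. The authors deposited whole-number counts per gene. HTSeq's summary rows, left out of library sizes and tests, held 15.0% to 31.2% (not unique) and 0.151% to 0.454% (ambiguous) of the reads.

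From these counts, edgeR 4.0.16 (R 4.3.3; TMM scaling, filterByExpr, robust quasi-likelihood F-test, two-sided) gave each comparison, with Benjamini-Hochberg adjustment over all genes tested and a threshold of 0.05. Standard errors are the absolute log2 fold change divided by the square root of F. DESeq2 1.42.0, limma-voom (limma 3.58.1) and other scalings and filters were tried as alternatives. Ratios were tested by exact two-sided permutation (Python 3.11.15). Scripts were tested on simulated data with changes in abundant genes. No duplicated library was found: chi-square per degree of freedom between libraries of 1 group was 6.91 to 324. RefSeq listed 14175 of the 17055 symbols.

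The genes and lists were chosen with earlier results of these data known, and the ratios and motif strings after their values were seen. Named were the 10 genes, Ins1 and Ins2, up to 4 called genes of each wider list by smallest p, and the 6 nearest profiles. Genes from marker lists, and Vgf, Cpxm2, Bloc1s1, Rab6b and Vti1a at 0 counts, were named after their values were seen.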

Additional observations from a re-analysis of the deposited data

Results flagged for a closer look

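Among the 5 miR-17-5p mRNA libraries, library 1 stood far above the other 4 for 2 of the 10 genes. Scg5 was at 638 CPM in library 1, and Scg2 at 3861 CPM. By Dixon's criterion 20 gene and group combinations were examined, and chance flags about 1 in 20.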

How the results depend on the processing

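Scaling to the endocrine identity list moved the median log2 fold change of all genes by 0.61 in mRNA, 0.51 in RISC, -0.76 in RISC against mRNA in either set of cells and -0.11 in the difference of responses, and DESeq2 size factors by -0.12, -0.18 and -0.13 in the last 3. Under endocrine scaling the mRNA response of Pcsk1 was 0.34, Pam 0.18, Chga 0.035, Chgb 0.24, Scg2 0.14, Scg3 0.0067 and Resp18 0.31, with 719 genes called. The RISC response was 0.11 for Pcsk1, 0.072 for Pcsk2, 0.39 for Pam and 0.36 for Chga. RISC against mRNA then gave 0 of the 10 higher in either set, and 5 lower in miR-17-5p cells, with Cpe and Scg3 added. Without a call, Pcsk2 was -0.32 and Chgb -0.59 in miR-17-5p cells, and Pcsk2 -0.72 and Pam -0.061 in control cells. By test, the mRNA response had 6 of the 10 lower and 872 genes called with DESeq2, and 8 and 1001 with limma-voom. The RISC response had 1 lower and 1536 genes with DESeq2 and 20 genes with limma-voom, and Cpe was -0.070 with DESeq2 size factors and -0.071 with DESeq2. In control cells DESeq2 called 4369 genes and a mean of at least 50 counts 1254, and Pcsk2 was -0.14 with DESeq2 size factors and -0.13 with DESeq2. The difference of responses had 1 of the 10 lower with DESeq2 (2213 genes called in all) or its size factors (1498 genes). With limma-voom 0 genes were called in all. With a mean of at least 50 counts it was 0.020 for Pcsk1, 0.080 for Scg5 and 1.4e-05 for Scg2. The causes of these changes were not tested.

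Deviations from the group means correlated at -0.192 to 0.0489 between same-numbered libraries and at -0.103 to 0.17 between differently numbered ones. With so few libraries per group this cannot settle whether the numbers pair them. With the replicate block 0 genes were called in the mRNA response (Pcsk1 0.14), 338 in control cells with 1 of the 10 higher (Pam at adjusted p = 0.156 and Scg2 at 0.0739 by edgeR), and 30 in the difference of responses (Scg5 0.17). No paired analysis was possible because the groups share only number 2 in the RISC response.

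Leaving out each library gave 0 to 7 of the 10 lower and 85 to 816 genes called in the mRNA response, and 0 to 1 higher, 0 to 1 lower and 0 to 1225 genes in the RISC response (Cpe -0.33 to 0.58, Pam -0.32 to 0.11, Chgb -0.10 to 0.96). RISC against mRNA gave 1 to 3 higher, 3 to 5 lower and 1255 to 4540 genes in control cells (Pcsk2 -0.089 to 0.15), and Cpe -0.48 to 0.034 in miR-17-5p cells. The difference gave 0 to 1 higher, 0 to 1 lower and 1203 to 2853 genes, with Pcsk1 -0.31 to 0.20, Pcsk2 -0.069 to 0.60, Scg5 -0.37 to 0.45, Scg2 -0.31 to 0.18 and Scg3 -0.38 to 0.29. The log2 ratio of miR-17-5p RISC over control RISC ranged from -0.55 to 0.14 for Scg5 per Pcsk2 and from -0.032 to 0.15 for Pcsk1 per Pcsk2, in an alternative chosen after seeing the data.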
